A study of Mus musculus with 2 samples.

Results

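The surface proteins of hepatic immune cells were read with 49 antibodies, each carrying an oligonucleotide tag that is captured and counted together with the transcripts of the same cell. All antibodies of the deposited antibody table were taken (49 of 49), and 48 were paired with the gene or genes named for them among the 13528 genes of the transcript table. TER-119, which binds a protein complex of red cells, had no paired gene. Antibody and transcript were compared over the cell types named in the deposited metadata, in wild-type (WT) mice and in dnTGFβRII (TG) mice.

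In TG mice, on a C57BL/6 background, the mouse CD4 promoter drives a human TGF-β receptor II that blocks the signal of the normal receptor (dnTGFβRII, for dominant negative). They model primary biliary cholangitis, an autoimmune disease of the small bile ducts. WT mice were C57BL/6 controls, and all mice were 10 weeks old per the labels. The paper's methods give a somewhat younger age for the mice of the liver cell preparation. The cells were CD45+ immune cells of the liver. Each genotype was captured in 1 library that also held another genotype (IFN-γ ARE-Del-/- beside TG, and P40-/-IL-2Ra-/- beside WT), whose cells carry no genotype name in the metadata and were not used. The number of mice in a pool is not given in the sources used here. Since a genotype was a single library, no test between genotypes could be made, the genotype cannot be told apart from its capture library, and the 95% intervals below cover counting error only.

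Antibodies read the protein on the cell surface, whereas transcripts read what the cell is making at the time of capture. The levels can differ, because surface proteins can outlast their transcripts, be shed, or be held inside the cell. Lineage proteins such as CD4 and CD90.2 mark helper T cells and T cells in general, integrins such as CD49a and CD103 hold lymphocytes in tissue, and receptors such as CD357 and CD279 raise or restrain T cell activation.

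The WT cells (7282) held 12398127 antibody counts and the TG cells (4647) held 8694454. The 5 most counted antibodies took 59.5% of the counts in WT and 59.8% in TG, and 25 and 27 antibodies took under 0.5% each. Levels are given as antibody counts per 1000000 antibody counts of a cell type (CPM) with the median count per cell, and transcript levels as counts per 1000000 transcript counts of the same cells. Of 1274 levels (49 antibodies in 13 named cell types of both genotypes), 914 (71.7%) had a counting interval within 10% of the level. Because antibodies differ in how well they bind, a level was compared between cell types for 1 antibody and not between antibodies. In all, 36 cell barcodes were shared by WT and TG cells, and 6.12% of WT and 13.6% of TG cells held at least 2 counts of both B and T cell genes, with 26.2% and 44.6% among cells named immature B.

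The cell type names were checked against marker transcripts, and some went against them. The CD3, CD4, CD8β and NK1.1 antibodies and the Cd8a transcript were among the readouts the study used to name cells, so the levels of these antibodies across the names are not independent of the naming. In cells named NK, the T cell transcript Cd3e was at 97.8 CPM in WT and 1158 CPM in TG. Within them it was at 1608 CPM in cluster 3 (263 TG cells), 1401 CPM in cluster 11 (343 TG cells, against 22 in WT) and 133 CPM in cluster 8 (153 TG cells), while the 287 WT cells of cluster 8 were at 67.5 CPM. Over all cells named NK, Cd3d (77.2 CPM in WT and 448 CPM in TG) and Trac (196 and 836 CPM) also differed. Cd3g (485 and 549 CPM), Trbc1 (519 and 505 CPM) and Trbc2 (762 and 1079 CPM) differed less. The NK cell genes Ncr1 (969 and 561 CPM), Klrb1c (1424 and 1096 CPM), Klre1 (1368 and 1095 CPM) and Eomes (333 and 139 CPM) were lower in TG, and Gzma (8249 and 11594 CPM) was higher. Cells named monocyte carried the neutrophil transcripts Csf3r (2960.1 and 2862 CPM in WT and TG) and S100a8 (10788 and 21386 CPM), while Ccr2, a monocyte chemokine receptor, was at 40.2 and 21.7 CPM. Of the other monocyte genes checked, Csf1r was at 214 and 224 CPM, Ly6c2 at 297 and 436 CPM and F13a1 at 0.0 CPM in both. Cells named immature B had less Cd93 (0.983 and 1.64 CPM) and less Vpreb3 (44.2 and 17.2 CPM), both markers of immature B cells, than mature B cells (13.4 and 7.14 CPM, and 217 and 142 CPM). Of the cells named mature B, cluster 17 (155 WT and 29 TG cells) held Cd3e at 609 and 728 CPM. Of the cells named macrophage, cluster 22 (80 and 20 cells) had Csf1r, the receptor of the macrophage growth factor, at 23.0 and 23.6 CPM, against 596 and 861 CPM in cluster 15, and cluster 27 (23 WT cells) held no TG macrophage. CD8αα T cells held the γδ receptor transcript Trdc at 855 CPM in WT and 95.1 CPM in TG. The names are used below as the metadata give them, orders and ranges of types leave out the cells named other (29 WT and 38 TG cells) except where these are named, and values given as a pair are WT first and TG second.

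Antibodies ranged from well counted to barely counted. The highest median count over the types of at least 50 cells was at least 50 for 18 antibodies in WT and 16 in TG, and was 5 or below for 15 and 16. It was 0 in every type for 3 in each genotype, CD138, TIGIT and Ly-6G. CD90.1 served as a background antibody, since C57BL/6 mice carry the other allele product of Thy1, CD90.2. CD90.1 lay between 505 CPM (CD4 T) and 2556 CPM (monocyte) in WT and between 333 CPM (immature B) and 964 CPM (neutrophil) in TG, with a median of at most 2 counts per cell. TER-119 and CD24 took 39.1% of the antibody counts of WT NK and 42.4% of those of WT CD8αα T cells, so that without these counts the CPM of each other antibody there would be 1.64 and 1.74 times as high. Medians of counts per cell are not scaled to the total.

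**Figure D1:**
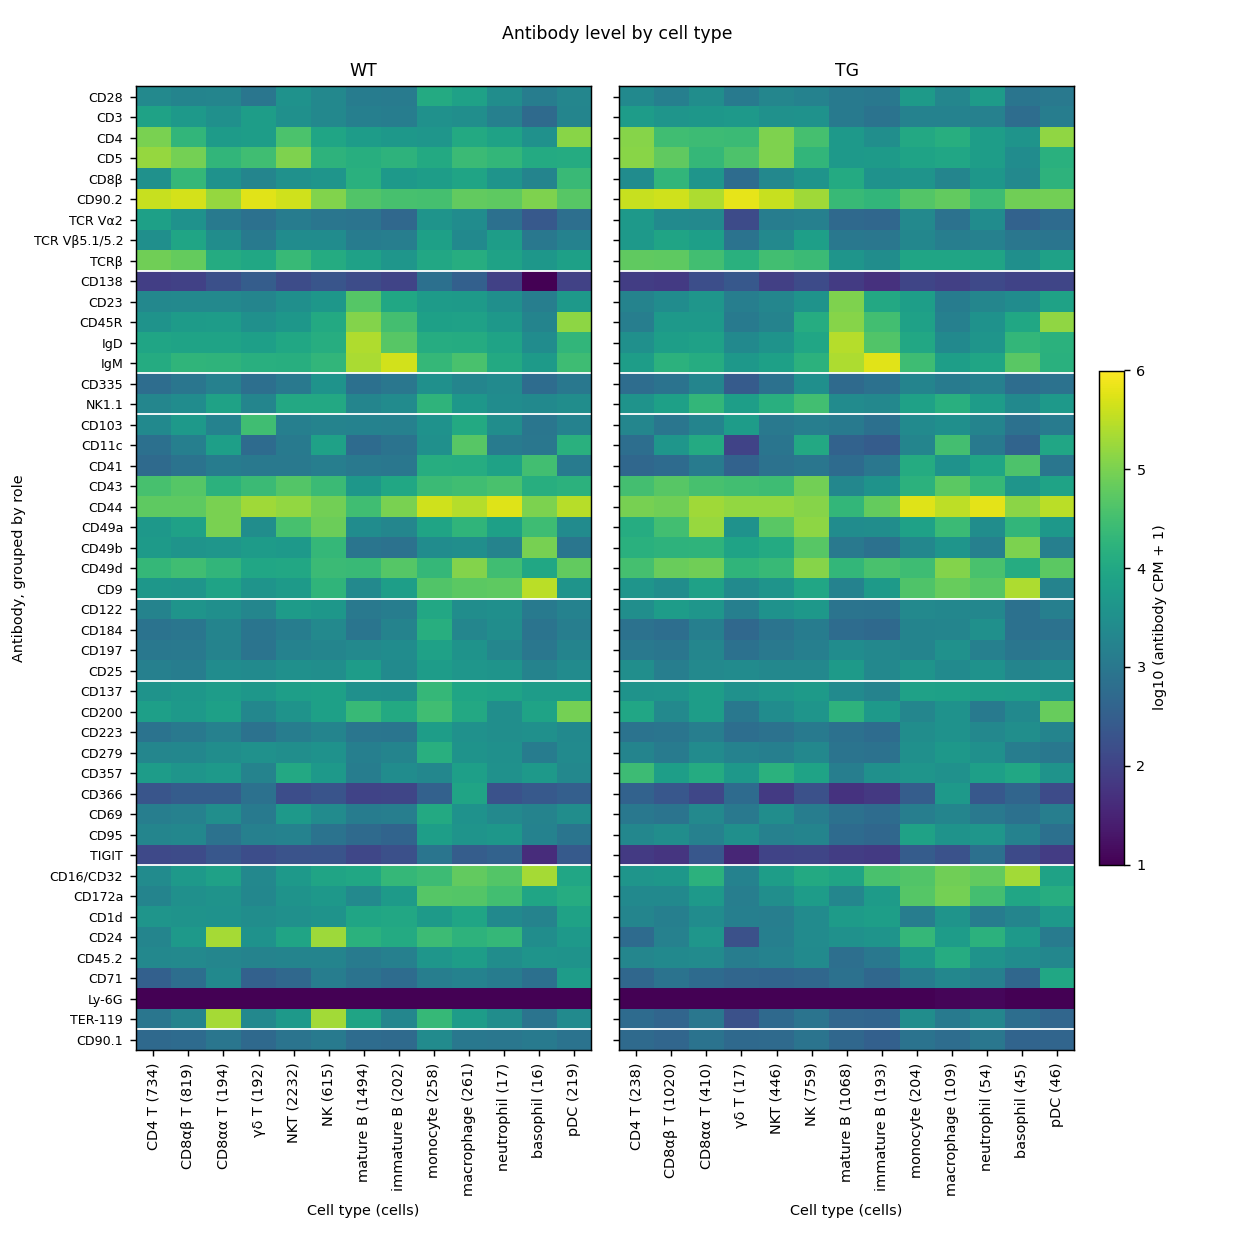
Level of each antibody (rows) in each named cell type (columns) of WT and TG cells, as log10 of CPM plus 1, with 1 library per genotype. CD90.2 is high in the T cell columns and IgM and IgD in the B cell columns, while Ly-6G stays near 0 in each column.

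Among the T cell proteins, CD90.2 covered T cells broadly. CD90.2, the Thy1 product on T cells, was at 601817 CPM in WT γδ T cells (median of 929 counts), 472186 CPM in CD8αβ T, 430001 CPM in NKT and 384240 CPM in CD4 T cells, against 33824 to 62514 CPM in B cells, monocytes, macrophages and plasmacytoid dendritic cells (pDC). In TG it was at 442669 CPM in CD8αβ T, 378131 CPM in NKT and 373563 CPM in CD4 T cells. CD8αα T cells stood lower for CD90.2, at 164729 and 244792 CPM (108 and 131.5 counts), although their Thy1 transcript (900 and 987 CPM) was near that of CD4 T cells (886 and 977 CPM).

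CD5, which dampens T cell receptor signals, separated CD4 T, NKT and CD8αβ T cells from γδ and CD8αα T cells. It was at 164182 CPM in WT CD4 T cells (267 counts), 109698 CPM in NKT and 91058 CPM in CD8αβ T cells, but 28762 CPM in γδ T and 19296 CPM in CD8αα T cells. Without the counts of TER-119 and CD24, CD8αα T cells were at 33524 CPM and γδ T cells at 28926 CPM, so the order of these last types turned with the scale. Cd5 transcript in WT was at 199, 101, 96.2, 28.2 and 25.5 CPM in the same sequence of types. TG cells ran from 131980 CPM (CD4 T) over 105859 CPM (NKT) and 59682 CPM (CD8αβ T) to 21169 CPM (CD8αα T).

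TCRβ, the β chain of the receptor, was at 82284 and 61374 CPM on CD4 T and 66515 and 57649 CPM on CD8αβ T cells, but at 23847 and 30889 CPM on NKT and 11779.8 and 31133 CPM on CD8αα T cells. The constant region transcripts (Trbc1 and Trbc2) differed little among these types in WT, at 2677, 2576, 2716 and 2460 CPM. CD3, the signalling part of the receptor, was weakly counted, with medians of 12 and 8 per CD4 T cell, 7 and 6 per CD8αβ T cell and 3 and 2 per CD8αα T cell. Its Cd3e transcript was instead higher in CD8αα T (1471 and 1747 CPM) than in CD4 T cells (829 and 1103 CPM).

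CD28, a costimulatory receptor of T cells, did not pass a median of 5 counts in any type, and 47.0% of its counts in WT monocytes, where its level was highest (11393 CPM), came from 3 cells. TCR Vα2 and TCR Vβ5.1/5.2 mark single receptor families. Each reached a median of at most 3 counts, with the highest levels at 6847 CPM (WT CD4 T) and 8515 CPM (WT CD8αβ T). Trav14, the gene of TCR Vα2, had 12 counts in WT and 7 in TG cells.

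CD4, the coreceptor of helper T cells, was high on CD4 T cells, which were named with it, and on pDC. WT CD4 T cells were at 96758 CPM (interval 96256 to 97264, 180.5 counts) and pDC at 130153 CPM (128930 to 131385, 135 counts), and TG cells were at 121644 CPM (188.5 counts) and 150981 CPM (93 counts). Cd4 transcript was at 519.8 and 494 CPM in WT and at 816 and 659 CPM in TG, so both readouts placed pDC beside CD4 T cells. NKT cells were at 38602 CPM (32 counts) with Cd4 at 162 CPM in WT and at 107924 CPM (116 counts) with Cd4 at 634 CPM in TG. Mature B cells, which should lack CD4, were at 5762 and 4785 CPM with medians of 3 and 8 counts, and those of cluster 1, which leaves out the cluster with Cd3e, were at 2241 and 3913 CPM.

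**Figure D2:**
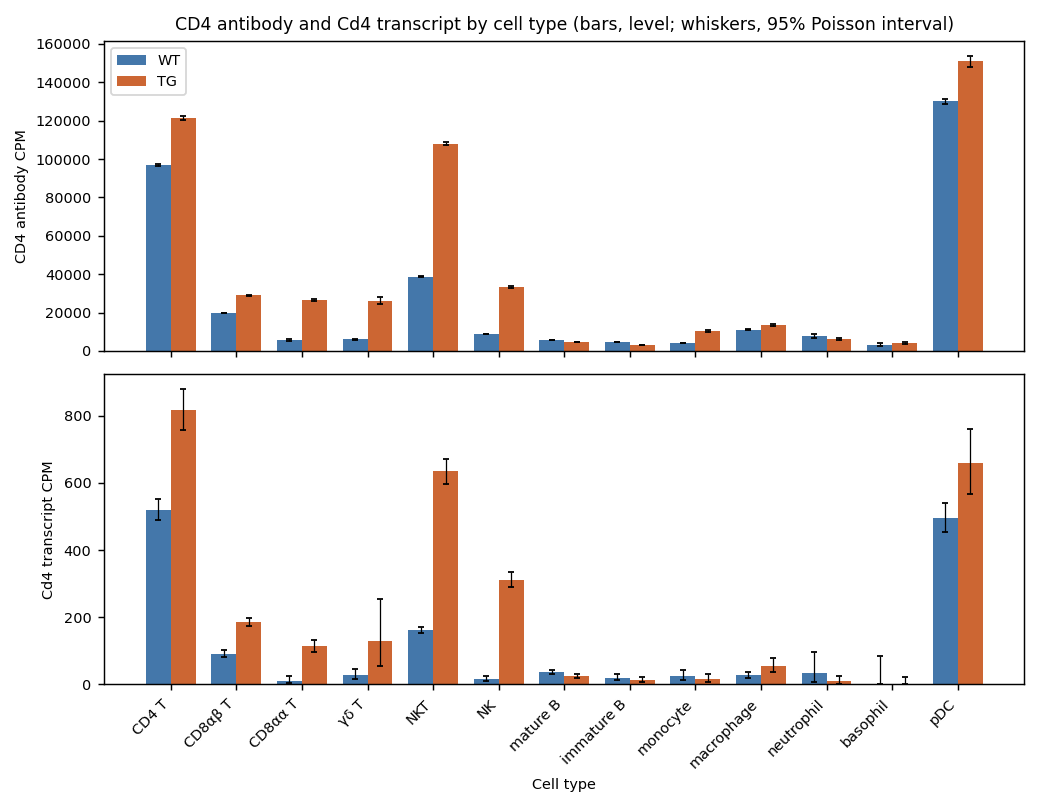
CD4 antibody level (CPM of antibody counts) and Cd4 transcript level (CPM of transcript counts) in each named cell type, WT and TG side by side, 1 library per genotype. CD4 T cells and pDC are high in both panels, and the antibody on NKT cells is higher in TG (107924 CPM) than in WT (38602 CPM).

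CD8β, the chain that marks CD8αβ T cells, was also counted outside T cells. WT CD8αβ T cells were at 21039 CPM (interval 20810.3 to 21270.4, 19 counts), pDC at 24362 CPM (23834 to 24898, 29 counts) and mature B cells at 14975 CPM (14848 to 15103, 32 counts). TG values were 19329, 16875 and 11521 CPM with medians of 17, 19 and 28 counts. Cd8b1 transcript was at 882 and 759 CPM in CD8αβ T cells, 233 and 178 CPM in pDC and 66.0 and 16.97 CPM in mature B cells. By median count per cell the antibody was higher on mature B than on CD8αβ T cells, but by CPM it was lower, as was the transcript.

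The B cell proteins divided the cells named mature and immature B. IgD, the receptor of mature naive B cells, was at 251899 CPM (525 counts) in WT mature B and 50644 CPM (43.5 counts) in immature B cells, and at 278344 CPM (704 counts) and 43588 CPM (27 counts) in TG. IgM was higher on immature B cells, at 449199 CPM (537 counts) against 232240 CPM (348 counts) in WT and at 583582 CPM (1765 counts) against 240579 CPM (423.5 counts) in TG. Both transcripts had the same directions, with Ighd at 1257 and 1699 CPM in mature and 282 and 233 CPM in immature B cells and Ighm at 4592 and 4472 CPM and 7201 and 6709 CPM.

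CD23, a low affinity IgE receptor of follicular B cells, was at 48089.6 CPM (85 counts) in WT mature B cells and 9541 CPM (5 counts) in immature B cells, with 107723 CPM (234 counts) and 10435 CPM (4 counts) in TG. Fcer2a transcript was at 630.1 and 545 CPM in mature and 87.5 and 50.7 CPM in immature B cells.

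CD45R, the B220 form of CD45, was at 117625 CPM (259 counts) on WT mature B cells and 138775 CPM (184 counts) on pDC, against 31839 CPM (28 counts) on immature B cells, and TG values were 122931, 150350 and 30049.9 CPM. Its gene Ptprc gave 943 CPM in mature B, 829.5 CPM in pDC and 1813 CPM in NK cells of WT, where CD45R was at 11132 CPM. Ptprc counts do not separate the splice forms, and CD45R and CD45.2 share this gene. CD138, a plasma cell protein, had a median of 0 in each named type, and in the cells named other, where the plasma cell transcript Jchain was at 14049 and 24422 CPM, it was at 299 and 946 CPM from 12 and 39 counts.

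NK1.1 and CD335, activating receptors of NK cells, were weakly counted on the cells they are known for. NK1.1 was at 10646 CPM (9 counts) on WT NK, 10325 CPM (9 counts) on NKT and 7662 CPM (7 counts) on CD8αα T cells, and at 31280.4 CPM (12 counts), 14008 CPM (13 counts) and 20086 CPM (10 counts) in TG. The paired transcripts Klrb1c and Klrb1b together gave 1952, 806 and 873 CPM in WT. Of the WT types of at least 50 cells, monocytes had the highest NK1.1 level, 17541 CPM, at a median of 4 counts. Without the counts of TER-119 and CD24, WT NK cells were at 17484 CPM, CD8αα T at 13310 CPM and NKT cells at 10463 CPM. The order of NKT and CD8αα T cells thus turned with the scale. CD335 had medians of 3 and 1 counts in NK cells, at 3628 and 3118 CPM, where Ncr1 was at 969 and 561 CPM.

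Integrins and adhesion proteins differed widely between cell types. CD49a, an integrin subunit of tissue-resident lymphocytes, was at 98897 CPM (93 counts) on WT CD8αα T, 74282 CPM (24 counts) on NK and 35082 CPM (27 counts) on NKT cells, and the transcript Itga1 was at 516, 258 and 111 CPM. In TG it was at 171325 CPM (90 counts), 140421 CPM (77 counts) and 53692 CPM (54.5 counts), with Itga1 at 589.6, 305 and 202 CPM. CD4 T, γδ T, B and pDC cells of WT lay between 1979.9 and 4668 CPM. Without the counts of TER-119 and CD24, CD49a was at 171813 CPM on WT CD8αα T and 122000 CPM on WT NK cells. In TG those counts were 0.525% and 0.337% of the antibody counts of the same types.

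CD49b, an integrin subunit of NK cells and basophils, was at 95220.2 CPM (128.5 counts) on the 16 WT basophils and 101878 CPM (121 counts) on the 45 TG basophils. NK cells followed at 21113 and 49494 CPM, and mature B cells were at 858 and 1063 CPM. CD49d, the α4 subunit that binds VCAM-1, was highest among the named types on macrophages in WT (115507 CPM, 146 counts) and on NK cells (121895 CPM, 64 counts) and macrophages (118641 CPM, 145 counts) in TG. It was lowest on γδ T cells and basophils of WT (8945 and 9543 CPM), where Itga4 transcript was low as well (136 and 116 CPM, against 579 CPM in macrophages).

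CD103, which binds E-cadherin, stood out on 1 type. WT γδ T cells were at 29009 CPM (interval 28467 to 29558, 28.5 counts), with Itgae at 181 CPM. The next named type was the macrophages at 10756 CPM, but with a median of 2 counts and 50.1% of the counts in 3 cells. The other named WT types lay between 917 and 4742 CPM, and the WT cells named other were at 11808 CPM with a median of 3 counts. On the 17 TG γδ T cells the median was 2 counts, and 3 of these cells held 80.9% of the CD103 counts.

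CD11c, an integrin of dendritic cells and macrophages, was at 51139.8 and 32621 CPM (34 and 28 counts) on macrophages and 15064 and 9037 CPM on pDC. It was also at 6559 and 11275 CPM on CD8αα T and 7112 and 10262 CPM on NK cells, where Itgax transcript (471 and 633 CPM, and 489 and 593 CPM) was above that of macrophages (325 and 364 CPM). Protein and transcript therefore placed different types first. CD41, the platelet integrin, was at 31212 and 39735 CPM (55 and 42 counts) on basophils, with its transcript Itga2b at 462 and 432 CPM. It was also at 13157 and 12103 CPM on monocytes and 12611 and 3505 CPM on macrophages, where Itga2b was at most 1.91 CPM. The WT macrophages of cluster 27 had a CD41 median of 94 counts, against 6 in cluster 15 and 2 in cluster 22.

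CD44, the hyaluronan receptor that rises on activated and memory cells, was highest on neutrophils (559138 and 617870 CPM) and monocytes (441564 and 561728 CPM, with 855.5 and 1019.5 counts) and lowest on mature B cells (28893 and 20793 CPM). Among WT lymphocytes it was at 192893 CPM on γδ T and 155535 CPM on NKT but 57653 CPM on CD4 T and 57254 CPM on CD8αβ T cells. Cd44 transcript ran from 1998 CPM in monocytes to 115 CPM in mature B cells of WT. CD43, a sialylated protein of T and myeloid cells, was at 48836 and 49184 CPM on CD8αβ T, 25684 and 86061 CPM on NK and 4493 and 2099 CPM on mature B cells. CD9, a tetraspanin, was at 300038 and 241503 CPM (444 and 285 counts) on basophils and between 42874 and 69143 CPM on monocytes, macrophages and neutrophils, against 2269 and 1679.9 CPM on mature B cells.

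The cytokine and chemokine receptors were weakly counted. CD122, the IL-2 receptor β chain, had a median of at most 7 counts in each type although its transcript Il2rb ranged from 65.3 CPM in neutrophils to 2629 CPM in NKT cells of WT. Some clusters were higher, with CD122 medians of 5 and 14 counts in cluster 4 and 8.5 and 20 in cluster 13 of the CD8αβ T cells. The WT macrophages of cluster 27 had a CD122 median of 18. CD25, the IL-2 receptor α chain, was at 5778 and 5256 CPM (11 and 12 counts) on mature B cells, where Il2ra transcript was at 8.91 and 4.46 CPM, and at 3166 and 2139 CPM (3 and 2 counts) on NKT cells, where Il2ra was at 151 and 108 CPM. CD184 (the receptor Cxcr4) and CD197 (the receptor Ccr7) had medians of at most 3 and 7 counts. Ccr7 transcript was at 265 CPM in mature B and 166 CPM in CD4 T cells of WT, and the antibody at 2212 and 1022 CPM with medians of 4 and 1.

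Checkpoint, costimulatory and death receptors were weakly counted except for CD200 and, on TG NKT and CD4 T cells, CD357. CD357 (GITR), a costimulatory receptor of regulatory and activated T cells, was at 10248 CPM (10 counts) on NKT and 5685 CPM (7 counts) on CD4 T cells in WT and at 15804 CPM (20 counts) and 27197 CPM (20.5 counts) in TG. Its transcript Tnfrsf18 was at 175 and 180.1 CPM in NKT and 90.9 and 251 CPM in CD4 T cells. CD200, an inhibitory ligand, was at 92005 and 69374 CPM (118 and 73.5 counts) on pDC and 23247 and 17056 CPM (44 and 37 counts) on mature B cells, with Cd200 transcript at 107 and 85.5 CPM and at 117 and 109.8 CPM. CD366 (TIM-3) was at 8402 and 4822 CPM on macrophages and at most 731 CPM in the remaining named types, while the cells named other were at 6801 and 1964 CPM from 29 and 38 cells, with Havcr2 transcript at 86.4 and 67.0 CPM in macrophages. Within the macrophages CD366 was at 25822 and 11239.6 CPM in cluster 22, which had little Csf1r, and at 3606 and 3816 CPM in cluster 15.

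CD137, an activation receptor of the TNF receptor family, had medians of 3 to 13 counts across the types. CD279 (PD-1) and CD223 (LAG-3), inhibitory receptors, had medians of at most 5 counts. Pdcd1 transcript was highest in WT γδ T cells (58.4 CPM), where the CD279 antibody was at 3398 CPM (4 counts). CD95, the death receptor Fas, reached 10 and 12 counts on monocytes (6226 and 7553 CPM), where Fas transcript was also highest (91.8 and 124 CPM). TIGIT, an inhibitory receptor, was at 34.2 to 860 CPM, and its transcript was highest in CD8αα T cells (92.7 and 69.5 CPM).

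CD69, an early activation receptor, was often low where its transcript was high. Over the types of at least 50 cells, Spearman's rank correlation of CD69 and Cd69 was -0.74 and -0.45 by CPM but -0.44 and 0.27 by median count per cell, so its sign in TG turned with the measure. WT mature B cells were at 1232 CPM (2 counts) with Cd69 at 616 CPM, and WT NKT cells at 4918 CPM (4 counts) with Cd69 at 195 CPM. Basophils had the most Cd69 transcript (1456 and 1176 CPM) with antibody levels of 1709 and 735 CPM. No type had a median above 4 counts.

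Among the myeloid and remaining proteins, CD16/CD32, receptors for IgG, was at 214735 and 201818 CPM (263 and 237 counts) on basophils, 63426 and 82136 CPM on macrophages and 26895 and 43859 CPM on monocytes. CD172a (SIRPα), which binds CD47, was at 47863 and 49002 CPM (78 and 73.5 counts) on monocytes and 45093 and 89460.5 CPM (28 and 90 counts) on macrophages, and at 1403 to 5834 CPM on T and NK cells. CD24, a glycoprotein of B cells and granulocytes, was at 27130.4 and 21714 CPM on monocytes and 15415 and 3376 CPM on mature B cells. CD24 was higher still on WT NK and CD8αα T cells, as described below with TER-119.

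CD71, the transferrin receptor, was at 5776 and 9482 CPM (7 and 10 counts) on pDC, where Tfrc transcript was highest too (239 and 534 CPM). CD1d, which presents lipids to NKT cells, was at 8700.2 and 5439 CPM on mature B and 10138 and 6219 CPM on immature B cells. CD45.2, the CD45 form of C57BL/6 leukocytes, had medians of 1 to 11 counts and was highest on macrophages (6190.2 and 12337 CPM). Ly-6G, a neutrophil protein, gave 0 and 1 counts on all neutrophils and 1 and 2 on all monocytes, while Ly6g transcript was at 990.5 and 1559 CPM in neutrophils and was found in 88.2 and 92.6% of them. The Ly-6G antibody thus gave almost no counts where its transcript was found.

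Whether protein and transcript rank the cell types alike was described with Spearman's rank correlation between antibody CPM and own transcript CPM over the types of at least 50 cells (11 in WT and 10 in TG). These types come from 1 library per genotype and share its depth, so the correlation is given without a p. The rank correlation was at least 0.5 for 23 of 48 antibodies in WT (47.9%, median 0.48) and 28 of 48 in TG (58.3%, median 0.55). As background, pairing each antibody with every gene of at least 100 counts gave a rank correlation of at least 0.5 in 8.19% of 471504 pairs in WT and 13.1% of 454848 pairs in TG. It was at least 0.5 in both genotypes for 21 antibodies and below 0 in both for 7. With the median count per cell in place of antibody CPM, 15 of the 21 were again at 0.5 or more in both, and 3 of the 7 (CD25, CD45R and CD90.1) were again below 0 in both. Of the 9 antibodies that reached 0.5 in 1 genotype alone by CPM, 1 (NK1.1) did so by median count. The values below are by CPM.

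**Figure D3:**
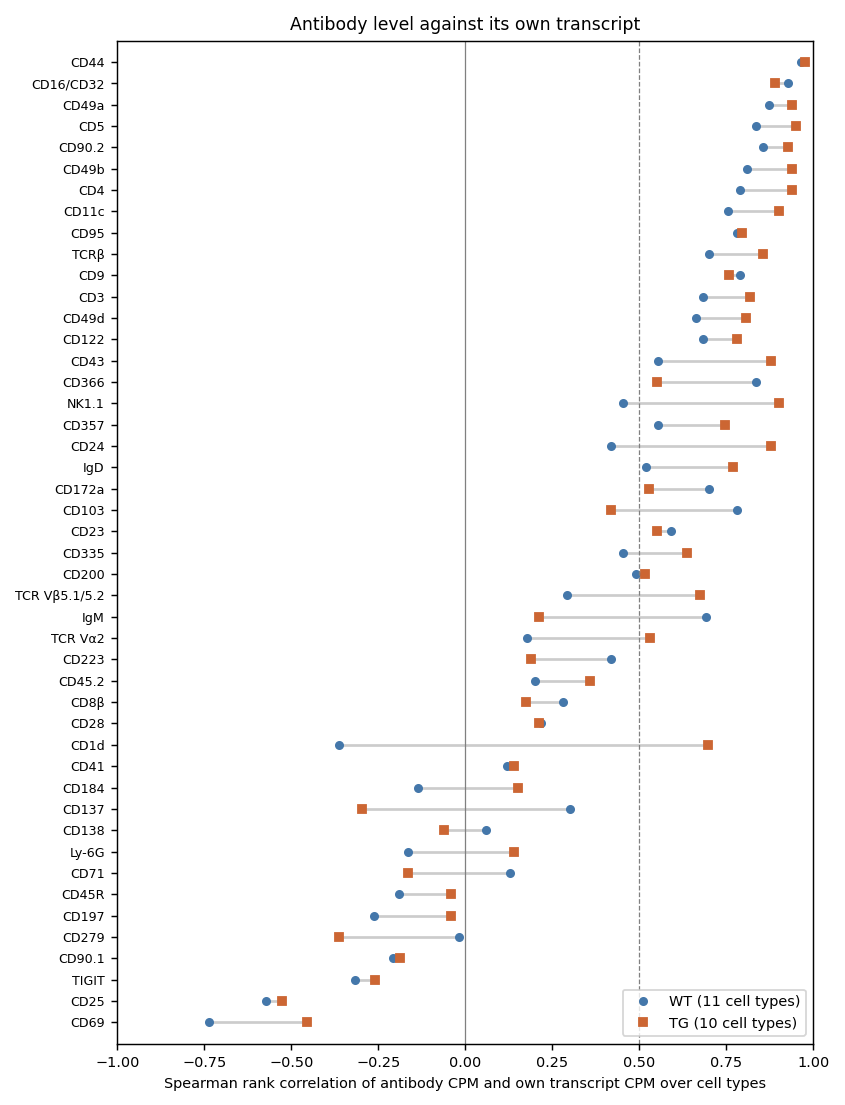
Spearman's rank correlation between antibody level and own transcript level over cell types, 1 row per antibody, WT (11 types) and TG (10 types). CD44, CD5, CD49a and CD16/CD32 are above 0.5 in both genotypes, and CD69 and CD25 are below 0 in both.

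Integrins and adhesion proteins had 8 of 10 in WT and 7 of 10 in TG at 0.5 or more (median rank correlation 0.77 and 0.84). CD44 reached 0.96 and 0.98, and it was the one antibody for which no gene had a higher rank correlation than its own. CD49a reached 0.87 and 0.94, CD49b 0.81 and 0.94, CD49d 0.66 and 0.81, CD9 0.79 and 0.76, CD11c 0.75 and 0.90 and CD43 0.55 and 0.88. CD41 was at 0.12 and 0.14 over these types, which leave out the basophils, the type where both its antibody and its transcript were highest.

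T cell receptor proteins and coreceptors reached 0.5 in 5 of 9 in WT and 7 of 9 in TG. CD5 was at 0.84 and 0.95, CD90.2 at 0.85 and 0.93, CD4 at 0.79 and 0.94, TCRβ at 0.70 and 0.85 and CD3 at 0.68 and 0.82. CD8β was at 0.28 and 0.18 and CD28 at 0.22 and 0.21. Of the B cell proteins, IgD (0.52 and 0.77) and CD23 (0.59 and 0.55) passed in both genotypes, and CD138 was at 0.06 and -0.06. The Fc receptors CD16/CD32 (0.93 and 0.89), CD172a (0.70 and 0.53), the death receptor CD95 (0.78 and 0.79), CD357 (0.55 and 0.75), CD366 (0.84 and 0.55) and CD122 (0.68 and 0.78) also passed in both.

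The antibodies below 0 in both genotypes were CD69 (-0.74 and -0.45), CD25 (-0.57 and -0.53), TIGIT (-0.32 and -0.26), CD197 (-0.26 and -0.04), CD279 (-0.02 and -0.36), CD45R (-0.19 and -0.04) and the background antibody CD90.1 (-0.21 and -0.19, against Thy1). Of these, only CD45R and CD25 had a median above 10 counts in any type. By median count CD197 was at 0.26 and 0.49, so its sign turned in both genotypes. CD103 (0.78 and 0.42) and IgM (0.69 and 0.21) reached 0.5 in WT alone by CPM, but by median count CD103 (0.46 and -0.07) reached it in neither and IgM (0.74 and 0.64) in both. CD1d (-0.36 and 0.70), CD24 (0.42 and 0.88), CD200 (0.49 and 0.52), CD335 (0.45 and 0.64), NK1.1 (0.45 and 0.90), TCR Vα2 (0.18 and 0.53) and TCR Vβ5.1/5.2 (0.29 and 0.68) reached it in TG alone by CPM. These differences between genotypes were not tested, and the types compared were not the same, since γδ T cells and pDC were under 50 cells in TG and neutrophils in WT. The remaining antibodies were CD184 (-0.14 and 0.15), CD137 (0.30 and -0.30), CD223 (0.42 and 0.19), CD71 (0.13 and -0.16), CD45.2 (0.20 and 0.36) and Ly-6G (-0.16 and 0.14).

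**Figure D4:**
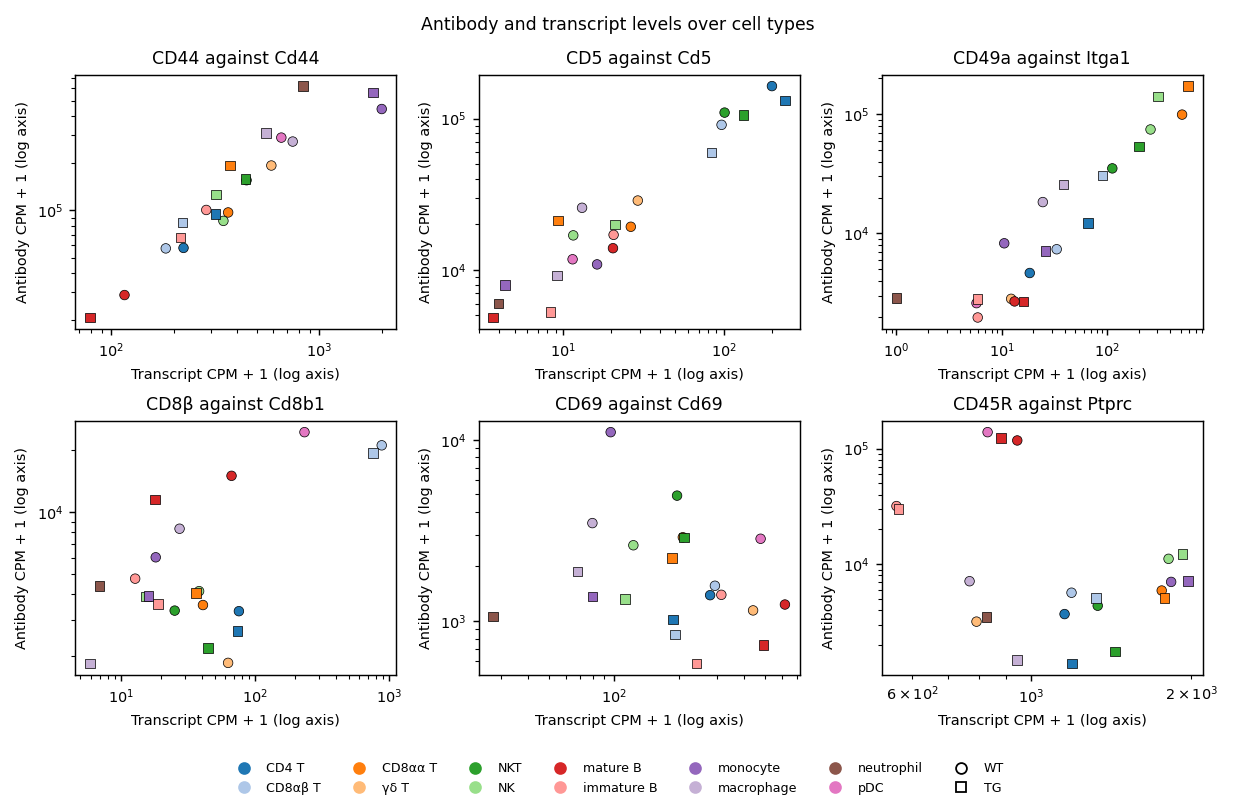
Antibody level against own transcript level, both in CPM on log axes, for CD44, CD5, CD49a, CD8β, CD69 and CD45R, 1 point per cell type of at least 50 cells in WT and TG. The rank correlation is 0.96 and 0.98 for CD44 and -0.74 and -0.45 for CD69 (WT and TG).

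Antibody and transcript had their highest value in the same type for 17 of 48 antibodies in WT and 20 of 48 in TG. How often other genes share the highest type of an antibody was not counted. WT monocytes were the highest type for 17 antibodies by CPM and for 13 by median count, against 5 and 8 in TG. For some of the 17 by CPM a few cells carried most counts, since the 3 highest of 258 WT monocytes, taken for each antibody, held 86.3% of the CD184, 75.9% of the CD69 and 73.9% of the CD279 counts of that type. For CD200 the 3 highest held 91.4% of the monocyte counts, although CD200 was highest on pDC.

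Partner chains and coreceptors were described with 24 pairs of an antibody and a partner gene, of which 13 in WT (median rank correlation 0.58) and 17 in TG (median 0.64) reached 0.5. The CD3 antibody ran with Cd247 (0.78 and 0.88), Cd3g (0.59 and 0.88) and Cd3d (0.58 and 0.92), and IgM with Cd79a (0.82 and 0.90), the signalling chain of the B cell receptor. The integrin β1 chain Itgb1 was at 0.81 and 0.75 with CD49b, 0.26 and 0.62 with CD49a and -0.09 and 0.38 with CD49d. Il2rg, the common γ chain, was at -0.33 and -0.54 with CD25, and B2m, the light chain of CD1d, at -0.59 and -0.10 with CD1d. The genes of highest rank correlation were Pdha1 in WT (0.95) and Frmd8 in TG (0.98) for CD5, and Ccnd3 (0.98) and Rapgef2 (0.99) for CD49a, over 11 and 10 types.

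The same pairing was described inside single cell types. Cells with and without a count of the own transcript were set side by side in the types with at least 20 of each, which gave 543 settings for 46 antibodies. The median centred log ratio of the antibody (the deposited value, which sets a count against the other antibodies of that cell) was higher in cells with the transcript in 434, lower in 85 and equal in 24, with a median difference of 0.09 and a difference of at least 1 in 42. Cells with the transcript also had more transcript counts in all in 514 of the 543, and the part of depth in this was not tested. The 434 were not set beside the share that other genes would give.

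Some proteins divided a type by transcript. WT NK cells with an Itga1 count had a median of 145 CD49a counts (188 cells) and those without had 5 (427 cells). The clusters of these cells were as far apart, with CD49a medians of 126.5 in cluster 3 (306 cells) and 3 in cluster 8 (287 cells), and the part of the clusters in the split was not tested. CD8αβ T cells with Cd8b1 had 32 CD8β counts in WT and 33 in TG, against 4 and 3 without it. CD4 on WT pDC was at 179 counts with Cd4 (153 cells) and 21.5 without (66 cells), so CD4 counts on pDC were higher where the transcript was found. CD23 on immature B cells was at 62 counts in WT and 112 in TG with Fcer2a and at 4 in both genotypes without, and IgD on the same cells was at 110 and 76 counts with Ighd and at 19 and 16 without.

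Other settings divided little. CD4 on WT CD4 T cells was at 191 counts with Cd4 and 160 without, and CD3 on WT CD4 T cells was at 11 counts with Cd3e and 12 without. CD8β on WT mature B cells was at 39.5 counts with Cd8b1 (92 cells) and 31 without (1402 cells), so mature B cells carried CD8β counts whether or not Cd8b1 was found. CD69 on WT mature B cells was at 2 counts in both sets. TCR Vβ5.1/5.2 on CD8αβ T cells was at 39 counts in the 50 TG cells with its V genes and at 2 in the 970 without, but at 3 and 2 counts in WT, where 27 cells had them.

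TG was set against WT in the 9 types with at least 50 cells in both genotypes, as the log2 ratio of CPM for antibodies with at least 10 counts in each. Ly-6G was too low in all 9 types, which left 432 ratios of 48 antibodies. In TG 33 ratios (7.64%) were at least 2-fold higher and 79 (18.3%) at least 2-fold lower, and the median log2 ratio was -0.30. Among all genes of the same cells, 3.07% (mature B) to 6.62% (CD4 T) were past 2-fold in either direction, beside 10.4% (mature B) to 37.5% (monocyte and macrophage) of the antibodies. The split depended on the scale, with 39 higher and 61 lower under TMM scaling, 20 and 89 without the counts of TER-119 and CD24, 84 and 43 after the CD90.1 ratio of the cell type was subtracted, and 16 and 8 as differences of mean centred log ratios. The intervals do not include how far 2 WT libraries would differ. The ratio of the background antibody CD90.1 ranged from -1.69 (monocyte) to 0.07, with a median of -0.35.

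**Figure D5:**
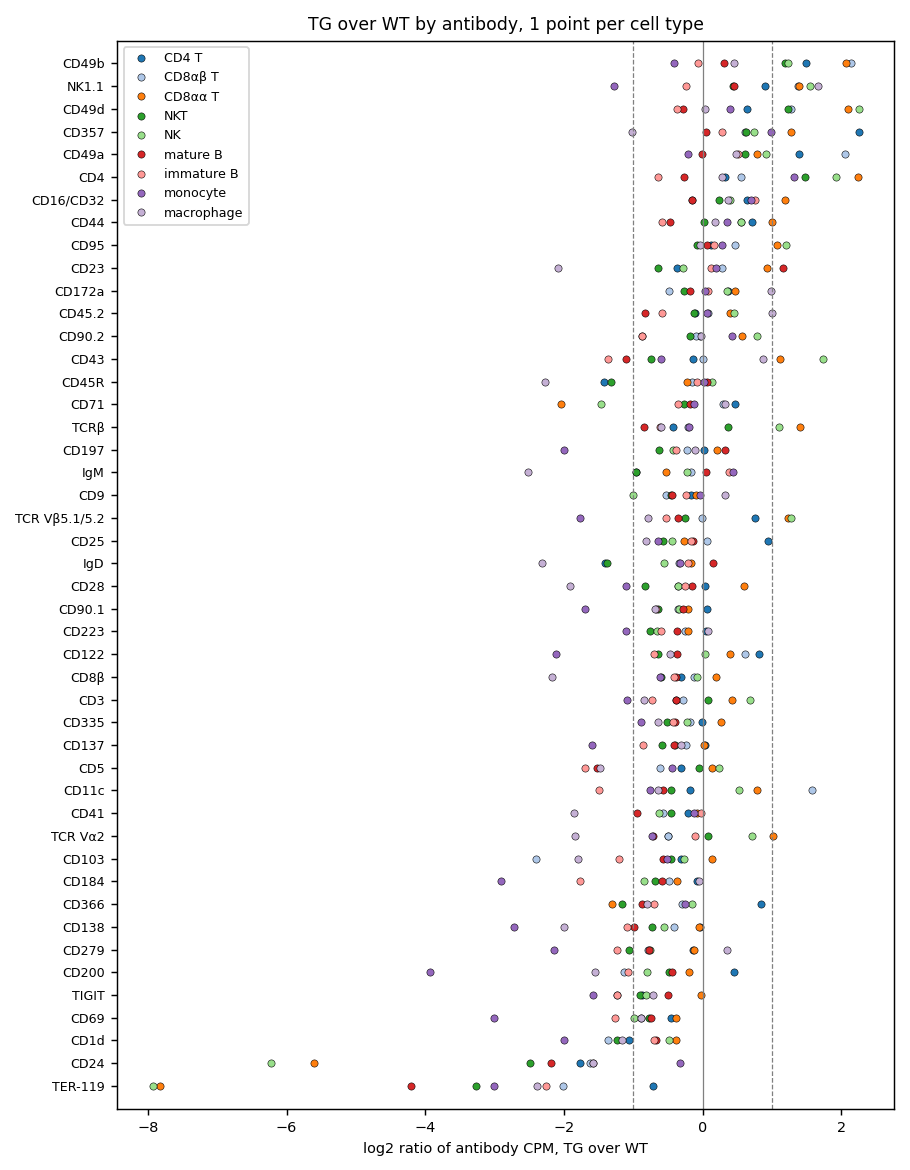
Log2 ratio of TG over WT antibody CPM, 1 row per antibody and 1 point per cell type (9 types), 1 library per genotype, with lines at 2-fold. CD49b, CD49d, NK1.1 and CD4 lie above 0 in 7 of 9 types each. TER-119, CD24, CD1d, CD69, CD138, CD184, CD41 and TIGIT lie below 0 in all 9.

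CD49b was past 2-fold higher in TG in 5 of 9 types and above 0 in 7. It was at 3914 CPM (2 counts) in WT and 17229 CPM (17 counts) in TG CD8αβ T cells, a log2 ratio of 2.14 (2.1 to 2.18), and Itga2 transcript had a log2 ratio of 1.63 (1.13 to 2.16). In CD8αα T cells the CD49b ratio was 2.07 (1.97 to 2.17), in CD4 T 1.49 (1.44 to 1.54), in NK 1.23 (1.2 to 1.26) and in NKT cells 1.19 (1.15 to 1.23). Without the counts of TER-119 and CD24 the NK ratio of CD49b was 0.52 and no longer past 2-fold. On CD4 T cells it was 2.45 in cluster 6 and 1.16 in cluster 9 but -0.74 in cluster 21. By cluster, CD49b was higher in TG in 12 of 14 clusters of at least 50 cells in each genotype, and past 2-fold in 8.

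CD49d was past 2-fold higher in 4 types. The CD49d ratio was 2.25 (2.23 to 2.28) in NK, 2.11 (2.06 to 2.15) in CD8αα T, 1.28 (1.27 to 1.3) in CD8αβ T and 1.23 (1.2 to 1.26) in NKT cells, with Itga4 at 0.90, 0.62, 0.14 and 1.67. By cluster, CD49d was higher in TG in 10 of 14, past 2-fold higher in 5 and past 2-fold lower in 1. The NK ratio joined 2.94 in cluster 3, 1.52 in cluster 8 (medians of 29 and 70 counts) and 0.74 in cluster 11, which held 22 WT and 343 TG cells. CD49a was past 2-fold in CD8αβ T cells (7380.5 and 30639.8 CPM, 3 and 13 counts, log2 ratio 2.05, 2.02 to 2.08) and CD4 T cells (4668 and 12192 CPM, 2 and 5 counts, 1.38, 1.33 to 1.44), where Itga1 was at 1.48 (1.17 to 1.81) and 1.9 (1.26 to 2.56). CD11c was also higher on TG CD8αβ T cells (1411 and 4222 CPM, 1 and 2 counts, 1.58, 1.51 to 1.65), with Itgax at 2.36 (2.03 to 2.7). The CD8αβ T cells lay in different clusters, since cluster 4 held 363 of 819 WT and 145 of 1020 TG cells and cluster 7 held 132 and 319. CD49d was at 1.54 in cluster 7 and 0.58 in cluster 12 but at -0.64 in cluster 4 and -1.18 in cluster 13 (medians of 25 and 14 and of 22.5 and 14 counts). CD49a was at 2.09 and 1.79 in clusters 7 and 12, and at 0.27 and -0.28 in clusters 4 and 13. CD11c was at 1.22 and 1.61 in clusters 7 and 12, and at -0.28 and -0.0034 in clusters 4 and 13. CD49b was above 0 in each of the 5 CD8αβ T clusters with at least 20 cells in both genotypes, from 0.48 (cluster 13) to 1.83 (cluster 12).

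CD103 had the opposite direction on CD8αβ T cells, at 4742 CPM (3 counts) in WT and 897 CPM (1 count) in TG, a log2 ratio of -2.4 (-2.48 to -2.33), with Itgae at -3.36 (-4.13 to -2.67). Within cluster 4 of these cells the CD103 median was 9 in WT and 1 in TG, a ratio of -3.32 (-3.51 to -3.13). In the other CD8αβ T clusters with at least 20 cells in both genotypes the medians were low in both, at 2 and 1 in cluster 7 and 1 and 1 in clusters 12, 13 and 18. The CD44 medians of cluster 4 were 14 and 105 counts, so its WT and TG cells differed in more than CD103. CD103 was below 0 in 8 of 9 types and past 2-fold lower in 3, and in CD8αα T cells its ratio was 0.13, or -0.66 without the counts of TER-119 and CD24.

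CD4 was past 2-fold higher in 4 types, all of them other than CD4 T cells. The ratio of CD4 was 1.48 (1.47 to 1.5) in NKT cells, where the median was 32 and 116 counts and Cd4 transcript had a ratio of 1.97 (1.84 to 2.09). It was 2.24 (2.15 to 2.33) in CD8αα T cells (4 and 16 counts), where Cd4 was at 10.9 and 113 CPM (6 and 150 counts). In NK cells it was 1.92 (1.88 to 1.96, 3 and 14 counts), with Cd4 at 4.16 (3.62 to 4.76). The CD8αα T and NK ratios without the counts of TER-119 and CD24 are given below. Cells with at least 50 CD4 counts were 33.9% and 75.3% of NKT, 2.06% and 2.93% of CD8αα T and 2.76% and 11.5% of NK cells. Mature B cells of cluster 1 also had CD4 medians of 3 and 8 counts. Of the NK cells, cluster 8 had a CD4 ratio of 0.76 (0.66 to 0.85) and cluster 3, whose TG cells carried Cd3e, had 2.57 (2.51 to 2.62). Monocytes had a CD4 ratio of 1.32 (1.25 to 1.4) at medians of 2.5 and 9 counts, with Cd4 at -0.57 (-1.92 to 0.73). On CD4 T cells themselves it was 0.33.

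CD357 was above 0 in 8 of 9 types and had the highest ratio of CD4 T cells, at 5685 CPM (7 counts) in WT and 27197 CPM (20.5 counts) in TG, or 2.26 (2.22 to 2.3), with Tnfrsf18 at 1.46 (1.17 to 1.76). The CD357 ratio was 1.52 (1.46 to 1.59) in cluster 9 of the CD4 T cells, 0.66 (0.54 to 0.79) in cluster 6 and 2.42 (2.35 to 2.49) in cluster 21, where 65 WT and 48 TG cells had medians of 25 and 112.5 counts. Cluster 6, with the lowest ratio of the 3, held 397 of 734 WT and 58 of 238 TG CD4 T cells. NK1.1 was past 2-fold higher in 4 types and above 0 in 7, but the ratios on NK and CD8αα T cells were 0.84 and 0.60 without the counts of TER-119 and CD24. On NK cells the NK1.1 ratio was 1.56 (1.51 to 1.6) while Klrb1c and Klrb1b summed were at -0.72 (-0.80 to -0.65), so protein and transcript went opposite ways. Klrb1c alone differed less than the sum and was also lower in TG, at 1424 and 1096 CPM in these cells. In cluster 8, NK1.1 was at 1.35 (1.28 to 1.42), a ratio that includes the counts of TER-119 and CD24. The NK1.1 medians were 8 and 12 counts in cluster 8, 9 and 9 in cluster 3 and 6 and 15 in cluster 11.

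CD23 was the one antibody past 2-fold higher on mature B cells, at 48089.6 CPM (85 counts) in WT and 107723 CPM (234 counts) in TG, a log2 ratio of 1.16 (1.16 to 1.17). Fcer2a transcript was not higher, at -0.21 (-0.30 to -0.12). Cluster 1 of the mature B cells gave 1.08 (1.07 to 1.09) for CD23. The lowest ratios of mature B cells apart from TER-119 were CD24 (-2.19, -2.22 to -2.16), with Cd24a at -0.76 (-0.88 to -0.65), and CD5 (-1.52, -1.55 to -1.49), at medians of 10 and 8 counts. Cluster 17, which carried Cd3e, held 155 of the WT and 29 of the TG mature B cells and had CD5 medians of 107 and 42 counts. Without it the CD5 ratio was -0.74 and no longer past 2-fold, with medians of 9 and 8 in cluster 1. Leaving it out also moved the mature B cell ratios of CD4 from -0.27 to 0.81, of CD90.2 from -0.87 to 0.03 and of TCRβ from -0.85 to 0.04.

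TER-119 and CD24 were the lowest in TG, past 2-fold lower in 8 of 9 types each. TER-119 was at 202214 and 829 CPM in NK cells (-7.93, -8.06 to -7.8) and at 214667 and 945 CPM in CD8αα T cells (-7.83, -8.0 to -7.66). Cells with at least 50 TER-119 counts were 26.3% (22.9% to 30.0%) of WT NK and 33.0% (26.4% to 40.1%) of WT CD8αα T cells, with exact binomial intervals. There were 0 of 759 NK and 0 of 410 CD8αα T cells in TG, and a limit of 3 counts for a count of 0 allows shares of up to 0.395% and 0.732%. CD24 was at 188920 and 2536 CPM in NK (-6.22, -6.29 to -6.14) and 209723 and 4305 CPM in CD8αα T cells (-5.61, -5.69 to -5.53), but Cd24a transcript was at 13.1 and 7.89 CPM in NK and 16.4 and 8.30 CPM in CD8αα T cells.

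Red cell transcripts stood in the same WT types. Hba-a1 was at 537 CPM in NK and 1613 CPM in CD8αα T cells of WT and was listed at 0 in TG, and Hbb-bs was at 529.9 and 1351 CPM in WT and 1.31 and 0.755 CPM in TG. The paper's methods include a red cell lysis step in the liver cell preparation. The part of red cells or their fragments in these antibody levels was not tested. The share of TER-119 and CD24 in the antibody counts, given above for WT, was 0.337% in TG NK and 0.525% in TG CD8αα T cells. With those counts left out, NK ratios were 1.54 for CD49d, 1.21 for CD4 and 1.03 for CD43, while CD95 (0.50), TCRβ (0.39) and TCR Vβ5.1/5.2 (0.57) were no longer past 2-fold, and CD8αα T ratios were 1.45 for CD4, 1.32 for CD49d and 1.28 for CD49b.

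Antibodies past 2-fold were counted by cell type, beside the share of all genes past it in the same cells. By cell type, 3 antibodies were past 2-fold higher and 6 lower on CD4 T cells (6.25% and 12.5% of 48), 5 and 6 on CD8αβ T (10.4% and 12.5%), 11 and 4 on CD8αα T (22.9% and 8.33%), 3 and 9 on NKT (6.25% and 18.8%) and 8 and 4 on NK cells (16.7% and 8.33%). Without the counts of TER-119 and CD24, 3 of 46 antibodies were past 2-fold higher and 10 lower on CD8αα T cells (6.52% and 21.7%), and 3 were higher and 19 lower on NK cells (6.52% and 41.3%). On mature B cells there were 1 and 4 (2.08% and 8.33%), on immature B cells 0 and 12 (0.0% and 25.0%), and on both monocytes and macrophages 1 and 17 (2.08% and 35.4%). The WT macrophages included cluster 27, which held no TG macrophage and had medians of 111 counts for CD28 and 56 for CD23, against 2 and 2 in cluster 15. Without it 1 antibody was higher and 13 were lower on macrophages (2.08% and 27.1%), and the macrophage ratio was -0.48 for CD41 in place of -1.85, -0.62 for CD28 in place of -1.91, -0.94 for CD8β in place of -2.17 and -0.01 for CD357 in place of -1.02. Of the 17 lower antibodies on monocytes, 7 did not keep their direction once the CD90.1 ratio was subtracted, namely CD137, CD223, CD28, CD3, NK1.1, TIGIT and CD90.1 itself, which is then 0. Without the 3 monocytes of highest antibody total in each library, 1 antibody was higher and 9 were lower on monocytes (2.08% and 18.8%). Of all genes, 5.53% were higher and 1.09% lower in CD4 T, 2.26% and 2.57% in CD8αβ T, 1.40% and 2.64% in CD8αα T, 3.88% and 0.684% in NKT and 2.05% and 3.34% in NK cells. The shares were 1.38% and 1.69% in mature B cells, 1.44% and 1.83% in immature B cells, 2.86% and 3.13% in monocytes and 4.87% and 1.30% in macrophages. Among the lowest antibody ratios of CD4 T cells were CD24 (-1.76), CD45R (-1.42) and IgD (-1.41), all with medians of at most 8 counts. On NKT cells TER-119 (-3.27), CD24 (-2.48) and IgD (-1.38) were among the lowest, and on CD8αβ T cells TER-119 (-2.02) and CD24 (-1.62) followed CD103. CD71 was at -2.05 on CD8αα T and -1.47 on NK cells. Its median was 0 counts in both genotypes on CD8αα T cells and in NK clusters 3, 8 and 11, so these ratios rested on a minority of cells. After CD23, the highest ratios of mature B cells were NK1.1 (0.45) and CD197 (0.32). CD43 was at 1.74 (1.72 to 1.77) on NK cells but at 0.44 in cluster 8.

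On immature B cells CD16/CD32 had the highest ratio (0.76), followed by CD49a (0.52) and IgM (0.38), and the lowest were TER-119 (-2.26), CD184 (-1.77) and CD5 (-1.69). The medians of CD184 were 2 and 2 counts. IgM was at 449199 and 583582 CPM on these cells, and the CPM of each other antibody is taken over a total that includes it. On monocytes CD4 (1.32), CD357 (0.99) and CD16/CD32 (0.71) were highest, and CD200 (-3.93), CD69 (-3.01) and TER-119 (-3.0) lowest. As described, the 3 highest WT monocytes held most of the counts of CD200 and of CD69, and the medians were 3 and 2 counts for CD200 and 4 and 2 for CD69. On macrophages NK1.1 (1.66), CD45.2 (0.99) and CD172a (0.99) were highest and IgM (-2.52), TER-119 (-2.39) and IgD (-2.32) lowest, where 3 cells held 64.2% of the WT IgM counts.

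CD1d and CD69 were below 0 in all 9 types and lower in TG in all 14 clusters. CD138, CD184, CD24, CD41, TER-119 and TIGIT were also below 0 in all 9 types, and the median of all 432 log2 ratios was -0.30. CD1d was past 2-fold lower in 5 types, among them CD8αβ T cells with medians of 5 and 2 counts, but not on mature B cells (-0.68, medians of 15 and 11), and CD69 was past 2-fold lower in 2. Without the counts of TER-119 and CD24 these were 7 and 4 types. The median log2 ratio over the types was -1.06 for CD1d and -0.88 for CD69, beside -0.35 for CD90.1.

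The antibody ratios were set beside those of the own transcript where both genotypes had at least 10 counts. Of the 112 antibody ratios past 2-fold, 67 had a transcript ratio and 51 of these (76.1%) had the same sign, beside 189 of all 305 such ratios (62.0%). In 6 the transcript had the opposite sign with an interval that left out 0, among them NK1.1 on NK cells, CD23 on mature B cells, CD45R on NKT cells and macrophages, and IgD on NKT cells. For CD45R the transcript is Ptprc, whose counts do not separate the splice forms. On NKT cells of cluster 0 the medians were low, at 3 and 2 counts for CD45R and 6 and 4 for IgD. On CD8αβ T cells all 10 antibodies past 2-fold with a transcript ratio had the same sign, and on macrophages 3 of 8 did.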

How the data were processed

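Single CD45+ liver cells were captured in 2 BD Rhapsody libraries, each a pool of 2 genotypes, with TG cells in 1 and WT cells in the other. According to the methods, reads were aligned to mm10 (the build in the submitters' processing notes) with STAR in the BD pipeline, and cells were clustered in Seurat after integration. The authors deposited molecule counts per cell for 13528 genes and 49 antibodies, and centred log ratios of the antibody counts on a natural log scale. The latter were recomputed from the deposited counts, and 0 values differed by more than 1e-06. The filter on cells and genes is not given in the sources used here. The deposited cell type names, cluster numbers and genotype names were used, and columns left without a sample numbered 0. For 3 antibodies, 35787 values were compared with the library tables, and 0 differed. Genes seen in few cells of a genotype were mostly at 0 (365 genes in WT and 630 in TG, none of them a paired gene).

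Counts were summed per cell type and genotype and divided by the summed total (per 1000000). Exact Poisson and exact conditional binomial intervals at 95% were computed in Python 3.11.15 (numpy 2.4.6, scipy 1.17.1, pandas 2.3.3, matplotlib 3.10.9). Types needed 50 cells, antibodies 10 counts and genes 100 counts. No doublet caller was run, and cells with at least 2 counts of both B and T cell genes were kept, then left out as an alternative. The intervals were tested on simulated data (TG over WT transcript ratios in CD4 T cells, 7341 genes), where 96.4% held the true ratio and 198 of 198 changed genes had the right sign. The simulated counts were Poisson draws of summed transcripts, without spread between cells and without antibodies. The simulation thus checks the interval formula and cannot say how well the intervals cover real antibody counts. Alternatives changed the scale (TMM in edgeR 4.0.16, R 4.3.3), the filters, the grouping and the depth (cells thinned to 300 antibody counts, which left out 307 WT and 271 TG cells). Those that left out 3 cells per type, clusters 11, 17 or 27, or TER-119 and CD24, used medians, or set ratios by cluster number were added after seeing the data. The antibodies named in the genotype comparison were those past 2-fold in the most types and the 3 highest and 3 lowest per type, apart from those not reported here. The antibodies, partner genes and lists were chosen with earlier results of these data known. The results for 2 antibodies are not reported here, although counts over all antibodies include them.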

Additional observations from a re-analysis of the deposited data

How the results depend on the processing

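The number of antibodies with a rank correlation of at least 0.5 stayed between 20 and 26 in WT and between 23 and 32 in TG under 11 alternatives each. The 112 antibody ratios past 2-fold between TG and WT became 24 (16 higher and 8 lower) as differences of mean centred log ratios, a scale on which the logarithm is taken of 1 plus the scaled count. Under the other 16 alternatives there were 89 to 166. They were 100 with TMM scaling (39 higher and 61 lower), 127 after subtraction of the CD90.1 ratio (84 and 43), 109 without TER-119 and CD24 counts (20 and 89) and 166 of 668 by cluster number (49 and 117). Of the 112, 105 kept their direction under all alternatives that gave a ratio for the same antibody and cell type. The other 7 were all in monocytes (CD137, CD223, CD28, CD3, CD90.1, NK1.1 and TIGIT) and turned or came to 0 with the CD90.1 ratio subtracted, and NK1.1 turned under other alternatives too. Ratios by cluster number were not part of this count, and some went the other way, as given above for CD49d on CD8αβ T cells. Antibodies that an alternative left out were not scored under it. Of the rank correlations of at least 0.5 in size, either sign, 3 changed sign under an alternative, to 0.15 for CD25 in WT by cluster number, to -0.042 (mean count) and -0.57 (median count) for CD335 in TG and to -0.39 for TCR Vβ5.1/5.2 in TG with the median count. The cause was not tested. No paired analysis was possible because each genotype was 1 library and no result came from a test between replicates. For antibodies with a median of at most 5 counts per cell, the number of counts limits the precision within a cell, and some of their levels rested on a few cells.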
